A study of Homo sapiens with 4 samples.

Results

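The peaks described here are the 458 regions on chromosome 4 with the strand label plus in the peak list of Flag-AKT1 WT, out of 808 regions in that list. They were chosen by chromosome and label alone, and no read number entered the choice. They came from RNA immunoprecipitation followed by sequencing (RIP-seq) of MDA-MB-231, an established human breast cancer cell line, transfected with a plasmid for Flag-tagged wild-type AKT1. RNA bound to the Flag-tagged protein was pulled down with an anti-Flag antibody and sequenced in 1 library, and the cell lysate taken before the pulldown gave 1 input library. The second pair of the study, from the same line with a plasmid for Flag-tagged AKT1 carrying the E17K mutation, has 4838 regions in its list, of which 0 lie on chromosome 4 with either label, so no value of that pair enters here. Ribosomal RNA was depleted from all 4 libraries. With 1 library per condition no difference has a replicate check.

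AKT1 is a serine/threonine kinase that is recruited to the membrane by phosphoinositides and there promotes growth, survival and translation. It is not a classical RNA-binding protein, and RNA recovered with it can be bound directly, be carried by partner proteins or have stuck to the beads. RIP-seq measures such recovery by setting the reads of a transcript in the immunoprecipitate beside those in the input, where an abundant transcript gives many reads in both libraries.

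For each region the list gives an immunoprecipitate read count and a control read count, the latter taken to be the input as in the sample labels, although the series description also speaks of control IgG. The ratio of a peak is its immunoprecipitate reads over its input reads. It is not scaled for library size, because the lists give no library totals, so a ratio of 1 is no absence of enrichment and ratios are only read against other peaks of the list. The 458 peaks held 17342 immunoprecipitate reads and 18440 input reads, 33.9% and 35.3% of the reads in the whole list. Per peak the immunoprecipitate had 11 to 387 reads with a median of 22, and the input had 0 to 423 reads with a median of 23.5. All widths were multiples of 205 bp, from 205 to 5740 bp, with 114 peaks of 205 bp and 163 of 410 bp. The adjusted p-values that the authors list for these peaks reach at most 0.00644. What they test is not stated in the sources used here, and they are not read as enrichment over the input. Of the 458 peaks, 223 had fewer immunoprecipitate than input reads, among them a DHX15 peak with 13 and 38.

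Genes were named from RefSeq spans of GRCh38.p14, introns included. The labels name hg18 as the build, but 455 of the 458 peaks lay in a protein-coding span of GRCh38.p14, and small genes such as H2AZ1 and RPL9 were tiled by 3 and 5 peaks. Coordinates below are those of the deposited list. No exons and no genome were at hand, so exon, intron and untranslated region are not told apart.

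A few reference sequences lie inside these peaks and show the strand on which the transcripts run. Over all 458 peaks, 1 miRNA hairpin and 3 RefSeq start windows, which run from 250 bases before to 50 bases after an annotated start, overlapped a peak. They are printed 5′ to 3′ from RefSeq (GRCh38.p14), without the bases after the start. In the first line capitals mark the mature miRNA, in the second the seed (bases 2 to 8), and in the others the bases inside the peak.
MIR4800 hairpin, chr4:2250077-2250156, minus strand: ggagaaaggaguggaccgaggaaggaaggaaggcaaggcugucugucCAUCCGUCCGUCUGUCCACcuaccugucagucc
hsa-miR-4800-3p, chr4:2250091-2250109, minus strand: cAUCCGUCcgucuguccac
SRP72, 250 bases before the start, chr4:56467367-56467616, plus strand: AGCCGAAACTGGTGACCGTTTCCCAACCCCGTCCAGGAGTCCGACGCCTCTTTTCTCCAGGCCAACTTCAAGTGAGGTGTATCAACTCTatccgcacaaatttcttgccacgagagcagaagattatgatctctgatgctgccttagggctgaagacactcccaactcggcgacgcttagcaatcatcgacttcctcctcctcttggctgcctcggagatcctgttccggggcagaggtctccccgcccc
UBE2D3, 250 bases before a start, chr4:102826859-102827108, minus strand: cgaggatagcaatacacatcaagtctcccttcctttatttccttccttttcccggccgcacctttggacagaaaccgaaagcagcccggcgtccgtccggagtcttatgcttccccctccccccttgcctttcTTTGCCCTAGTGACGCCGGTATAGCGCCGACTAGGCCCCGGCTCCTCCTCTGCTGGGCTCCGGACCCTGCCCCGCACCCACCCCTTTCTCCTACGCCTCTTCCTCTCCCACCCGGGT
LOC107986334, 250 bases before the start, chr4:186628148-186628397, minus strand: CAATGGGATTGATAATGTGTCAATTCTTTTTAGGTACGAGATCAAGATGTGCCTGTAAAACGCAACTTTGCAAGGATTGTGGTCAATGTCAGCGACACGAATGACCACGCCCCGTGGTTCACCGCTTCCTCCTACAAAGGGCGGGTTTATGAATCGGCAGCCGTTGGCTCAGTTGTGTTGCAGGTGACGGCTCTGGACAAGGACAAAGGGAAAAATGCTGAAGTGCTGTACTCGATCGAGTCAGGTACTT
The hairpin of MIR4800 lies in a 2050 bp peak of MXD4, a partner of MAX that represses transcription, which held 38 immunoprecipitate and 46 input reads. Reads of that peak cannot be assigned to the hairpin. The SRP72 window shares 89 bases with a peak of 12 immunoprecipitate and 6 input reads (ratio 2). SRP72, a subunit of the signal recognition particle, is encoded on the plus strand, and its own span does not touch this peak. The peak lies instead in the span of LOC124900706, a lncRNA on the minus strand that runs away from SRP72. The UBE2D3 window shares 117 bases with a peak of 29 and 28 reads. All 250 printed bases of LOC107986334 lie inside a peak of 51 immunoprecipitate and 39 input reads that is also a peak of FAT1, which has the same strand.

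The strand label of these peaks was opposite to the strand of the gene wherever a single strand was on record. Strands were taken from the RefSeq start windows. Of the 389 peaks whose protein-coding spans were all on 1 known strand, 389 lay in genes of the minus strand, which is 100% (95% Wilson interval 99.0% to 100%). With genes of all kinds it was 365 of 365 peaks. This count leaves out 32 peaks in spans of which the strands differed or were known in part. Among them are peaks shared with plus-strand lncRNA genes such as NOP14-AS1. Counted by gene, the strand was minus in 99 of 99 protein-coding genes that were the sole protein-coding span of a peak. For 60 further peaks no strand was listed for the coding gene, and 6 peaks lay in coding spans of which the strands differed or were known in part. Chromosome 4 has about as many protein-coding genes on each strand in this table, 330 on minus and 327 on plus. Peaks were found in 104 (31.5%) of those on minus. On plus they touched 4 genes, TMEM165, POLR2B, C4orf51 and CFAP96. Each of these peaks also lay in another coding span, namely CLOCK, IGFBP7, ZNF827 and UFSP2. The 1 peak of this list with a minus label on chromosome 4 lay in NSD2, a histone methyltransferase gene on the plus strand, with 14 immunoprecipitate and 31 input reads. On chromosome X, the other strand with many peaks in this list, 206 of 207 peaks with a plus label lay in minus-strand coding genes (99.5%, interval 97.3% to 99.9%). Where all coding spans of a chromosome 4 peak with the plus label had 1 listed strand, that strand was thus minus. Apart from the 1 NSD2 peak, the list has no peak on chromosome 4 that lies in a plus-strand coding gene alone.

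Gene lists of chromosome 4 draw on the same peaks and genes, so their split by strand follows from the counts above and is no separate support. They were chosen with earlier results of these data known. Over the chromosome, 104 of 330 minus-strand coding genes and 20 of 113 without a listed strand had a peak. Of 92 genes in 10 lists, 37 are on the minus strand and 18 of these had a peak, 44 are on the plus strand and 0 of these had a peak with the plus label (NSD2, the gene of the 1 peak with a minus label, is among them), and 7 of the 11 without a listed strand had a peak. Among ribosomal proteins, RPL9 (minus) had 304 immunoprecipitate and 291 input reads over 5 peaks, while RPL34 and RPS3A (both plus) had none. Of the chemokines and EGF family ligands of 4q13, CXCL2 held 40 and 42 reads and CXCL3 held 12 and 5. CXCL8, CXCL1, AREG and EREG, all on the plus strand, had no peak, which says nothing about their level. The minus-strand genes CXCL5, CXCL10, CXCL11 and BTC had no peak either, so 2 of the 6 minus-strand genes of this list had one.

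Peaks overlapped 146 gene spans, of which 128 were protein-coding and 14 lncRNA. The coding genes had 1 peak in 45 cases, 5 or more in 34 cases, and at most 25, in ANKRD17. The 12 coding genes with the most immunoprecipitate reads held 42.4% of all immunoprecipitate reads in these peaks. WDR1, which promotes the disassembly of actin filaments with cofilin, had the most, with 1275 immunoprecipitate and 1348 input reads over 12 peaks. FAT1, an atypical cadherin, had 832 and 851 reads over 15 peaks. ANKRD17, an ankyrin repeat protein, had 827 and 793 reads, and was the only 1 of the 12 with a ratio over 1. ANXA5, the phosphatidylserine-binding annexin, had 755 and 890 reads over 8 peaks. SLC7A11, the cystine/glutamate exchanger, had 531 and 563 reads, and SEC31A, a coat protein of vesicles leaving the endoplasmic reticulum, had 496 and 515. These genes thus ran close to the diagonal, with the immunoprecipitate a little below the input. The other 6 were H2AZ1 (histone variant H2A.Z; 495 and 561 reads), UBE2D3 (ubiquitin-conjugating enzyme; 463 and 547), CCNI (cyclin I; 452 and 552), DHX15 (RNA helicase of the spliceosome; 440 and 567), LETM1 (protein of the inner mitochondrial membrane; 402 and 466) and HNRNPDL (RNA-binding protein; 384 and 388). The ratios of the 12 genes ran from 0.776 for DHX15 to 1.04 for ANKRD17.

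Set against peak width, the order changed. Per kilobase of peak, H2AZ1 had 345 immunoprecipitate reads, ANXA5 246, WDR1 194 and RPL9 185, compared to a median of 38.3 per kilobase over the 128 coding genes. FAT1 ranked 35 and ANKRD17 33 of 146 on this scale, so their place among the genes with the most reads came with many or wide peaks. Input reads per kilobase were 391 in H2AZ1, 289 in ANXA5, 205 in WDR1 and 177 in RPL9.

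The median ratio of the 458 peaks was 1, with quartiles of 0.810 and 1.27. The immunoprecipitate had more reads than the input in 216 peaks, fewer in 223 and as many in 19. On the plus strand label of chromosome X the median ratio was 0.922 (quartiles 0.763 and 1.15, 252 peaks), and over all 350 other peaks of the list it was 0.951. These differences were not tested. The ratio varied with the number of reads. Among the 111 peaks with fewer than 30 reads in both libraries together the median ratio was 1.33. It was 0.939 among the 138 with 30 to 49 reads and 0.953 among the 130 with 50 to 99. Among the 46 with 100 to 199 reads it was 0.867, and among the 33 with 201 reads or more 0.894. Above 30 reads the medians thus did not fall steadily. No peak has fewer than 11 immunoprecipitate reads, whereas 63 peaks have fewer than 11 input reads, so a low input number can enter the list and a low immunoprecipitate number cannot. The part of this lower limit in the median was not tested.

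Peaks were next set against the median ratio of 1, that is, an immunoprecipitate share of 50%. The 95% Wilson interval of the share lay above 50% in 19 peaks (4.15% of the 458, with 5.2% for all peaks of the list) and below it in 34 peaks (7.42%, with 11.4% for all peaks of the list). Both shares were below those of the whole list. That list includes the 458 peaks, and the reference for all of it is the median of the 458. The 350 other peaks had a median ratio of 0.951 and a median of 32 immunoprecipitate reads, compared to 22 in the 458. The lower shares are therefore not read as a result about the 458 peaks. The excess of peaks below the reference depended on the reference: against the pooled share of the 458 peaks, 48.5%, 26 peaks lay above and 19 below. The intervals cover counting error only. The 19 peaks above had 12 to 63 immunoprecipitate reads and ratios of at least 1.71, and the 34 below had 12 to 285 reads and ratios of at most 0.839. The mean squared deviation of the 458 peaks from their pooled ratio was 1.47 times what counting error gives. For the 252 plus-label peaks of chromosome X, set against their own pooled ratio, it was 1.64 times. All 350 peaks outside the 458, those of chromosome X included, gave 3.92 times. They hold peaks of up to 5628 immunoprecipitate reads, compared to at most 387 in the 458. Ratios of 2 or more were found in 36 peaks (7.86%, with 7.3% for the list) and ratios of 0.5 or less in 7 peaks (1.53%, with 3.47% for the list).

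**Figure D1:**
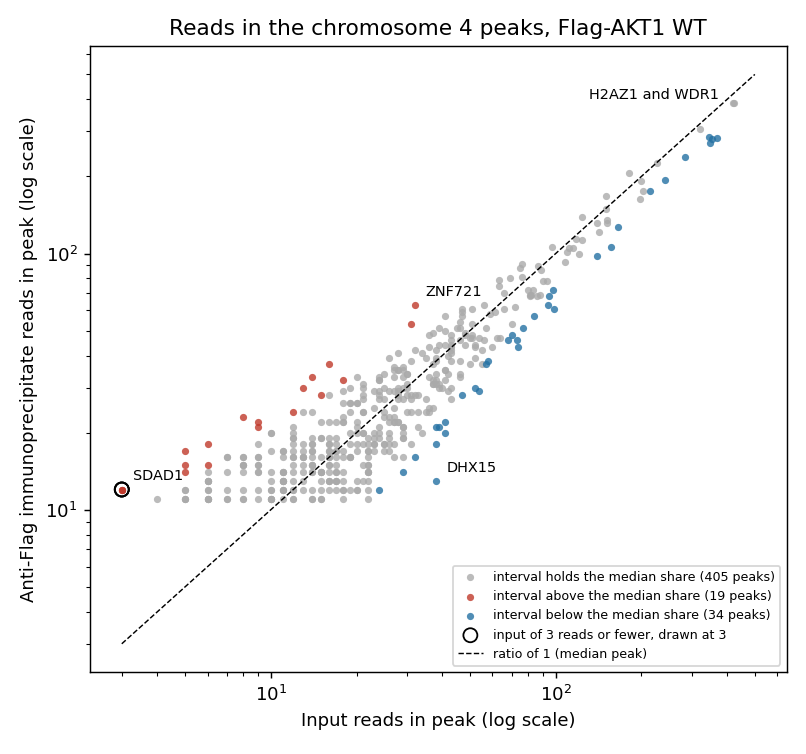
Immunoprecipitate against input reads of the 458 peaks, both on log scales, with 1 point per peak. Red and blue points have a 95% interval above (19 peaks) or below (34 peaks) the share at the median ratio, and the circle marks the 3 peaks with an input of 3 reads or fewer, in SDAD1, SCARB2 and PAQR3, each with 12 immunoprecipitate reads. The scatter is cut off below 11 immunoprecipitate reads, and both peaks with the most reads, in H2AZ1 and WDR1, lie just below the dashed line of ratio 1.

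Each peak was also tested against the sum of all other peaks of the list (two-sided Fisher's exact test, Benjamini-Hochberg adjustment over 808 peaks), a test that compares these libraries and not conditions. Of the 458 peaks, 2 had more immunoprecipitate reads (0.437%, with 1.86% called over the list) and 1 had fewer (0.218%, with 1.24% over the list). The unadjusted p was under 0.05 in 18 and 25 peaks. The SDAD1 peak at 75963981 to 75964185 held 12 immunoprecipitate reads and 0 input reads, a ratio of at least 4 when the input is counted as 3 reads (Fisher's exact test, adjusted p = 0.0102). No peak of the list has fewer than 11 immunoprecipitate reads, so a peak with these 2 numbers reversed could not have been listed. The test does not allow for this, and the SDAD1 call is not read as support for enrichment. The peak at 441366 to 444440, in the overlapping spans of the zinc finger gene ZNF721 and the pseudogene ABCA11P, held 63 and 32 reads, a ratio of 1.97 (Fisher's exact test, adjusted p = 0.0449). Its reads cannot be divided between these spans, and zinc finger genes share sequence with each other. The DHX15 peak at 24556131 to 24556540 held 13 and 38 reads, a ratio of 0.342 and the lowest of the 458 (Fisher's exact test, adjusted p = 0.0247). None of these calls was left when only the 458 peaks served as reference (lowest adjusted p = 0.0768, Fisher's exact test). Without the peaks of chromosomes 14 and 21, which hold the peak with the most reads and the one with the highest ratio outside chromosome 4, only the SDAD1 call remained, at an adjusted p of 0.0355 in Fisher's exact test.

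Summed over the peaks of a gene, 99 protein-coding genes had at least 50 reads in both libraries together, with a median ratio of 0.924 and ratios of up to 1.97. The interval of the immunoprecipitate share held 50% in 82 of them, lay above it in 5 and below it in 12. Against the pooled share of 48.5% the direction of this imbalance turned, with 9 genes above and 6 below. ANKRD17, NUP54, PPP3CA and COX7B2 were then also above, and TMEM128, PLAC8, ANTXR2, UBE2D3, LETM1 and H2AZ1 were no longer below. The 5 above 50% were ZNF721, RFC1, BOD1L1, SDAD1 and PDS5A. RFC1, the large subunit of the clamp loader of DNA replication, had more immunoprecipitate than input reads in 9 of 9 peaks, with 152 and 101 reads in total and a ratio of 1.505 (share 60.1%, interval 53.9% to 65.9%). Its peaks ran from 1.07 to 2.80, on 11 to 28 immunoprecipitate reads each. A peak with so few reads is listed only if its immunoprecipitate reaches 11 reads, a limit that the input does not have. The part of this limit in the 9 of 9 peaks and in the interval of RFC1 was not tested. BOD1L1, which protects stalled replication forks, had more immunoprecipitate reads in 5 of 5 peaks, with 233 and 175 in total (ratio 1.33, share 57.1%, interval 52.3% to 61.8%). PDS5A, a regulator of cohesin, had 364 and 313 reads over 16 peaks, 11 of them over 1, and its interval began only just above 50%. Its peaks held 12 to 75 immunoprecipitate reads each, so the lower limit of 11 applies to them too. The part of this limit in the interval of PDS5A was not tested. SDAD1, a protein of 60S ribosome assembly, had 277 and 229 reads over 11 peaks with ratios between 0.632 and at least 4. Its interval began at 50.4%. The total includes the peak of 12 and 0 reads that is not read as support for enrichment. The interval without that peak was not computed, so the place of SDAD1 above 50% may depend on it. The peaks of SDAD1 did not share a direction, since 8 were over 1 and 3 under. Other genes of high ratio had intervals that held 50%. They were COX7B2, a subunit of cytochrome c oxidase, with 33 and 20 reads (ratio 1.65), ELF2, an ETS transcription factor, with 32 and 23 reads (1.39), and RWDD4 with 29 and 21 reads (1.38). RNA5SP155, a 5S ribosomal RNA pseudogene with 36 and 27 reads (1.33), lies within a peak of WDR1.

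The genes with an interval below 50% included GRSF1, TMEM128, SETD7, PLAC8, ANTXR2, DHX15, CCNI, UBE2D3, ANXA5, LETM1 and H2AZ1, and 6 of them are also among the 12 with the most reads. GRSF1, an RNA-binding protein of mitochondrial RNA granules, had 82 and 132 reads over 5 peaks, of which 4 were under 1 and 1 was at 1 (ratio 0.621, interval of the share 32.1% to 44.98%). SETD7, a lysine methyltransferase, had 183 and 255 reads and was under 1 in 4 of 4 peaks (ratio 0.718, interval 37.3% to 46.5%). TMEM128 had 37 and 57 reads (ratio 0.649), PLAC8 had 71 and 98 (0.724) and ANTXR2, a receptor of anthrax toxin, had 132 and 174 (0.759). RELL1 (ratio 0.708), FBXL5 (0.733) and ELOVL6, an elongase of fatty acids (0.750), had intervals that held 50%. H2AZ1 was under 1 in 3 of 3 peaks, with 386 and 423, 41 and 43, and 68 and 95 reads. In ANXA5 7 of 8 peaks were under 1, and in DHX15 9 of 12 peaks were. In DHX15, the 3 others had ratios of 1.13, 1.36 and 1.13. In CCNI 1 peak was over 1 and 4 were under. The peaks were more divided in UBE2D3 (3 over and 3 under), LETM1 (4 and 4) and ANTXR2 (1 and 2). The peaks with the most reads in these 3 genes were under 1, with 270 and 349, 194 and 242, and 106 and 156 reads. Like the peaks with many reads, the genes with at least 50 reads had a median ratio below 1.

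Within genes, single peaks with few reads spread widely. The peak with the most reads in each of the 13 genes with 8 or more peaks (both libraries summed) had a ratio between 0.757, in PLRG1, and 1.19, in PDS5A. In DDX60, an interferon-induced helicase, ratios over 14 peaks ran from 0.706 to 3.40, and the peak with the most reads had 43 and 52 (0.827). The peak at 3.40 held 17 and 5 reads, with an interval of the share from 56.6% to 89.9%. In SEC31A 19 peaks ran from 0.619 to 2.29 on at most 69 immunoprecipitate reads. SCARB2, a lysosomal membrane protein, had a peak of 12 immunoprecipitate reads and 1 input read beside peaks of 89 and 87, 43 and 60, 31 and 37, 24 and 33, and 16 and 7 reads. Its total of 215 and 225 reads gave a ratio of 0.956.

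Peaks lay at the 3′ ends of genes and also far inside them. Of the 394 overlaps of a peak with a minus-strand coding span (104 genes), 65 (16.5%, interval 13.2% to 20.5%) lay within 1000 bp of the 3′ end of the span, in 61 genes, and 12 lay within 1000 bp of its 5′ end. Of the reads in these overlaps, the 65 held 29.4% in the immunoprecipitate and 30.8% in the input. They were wider than the others, with a median of 1025 bp compared to 410 bp. Of the 10 overlaps with the most immunoprecipitate reads, 6 lay within 1000 bp of the 3′ end, in WDR1, H2AZ1, CCNI, ANXA5, UBE2D3 and G3BP2. The 4 others were an HNRNPDL peak with 307 and 321 reads, 3427 bp from the 3′ end, FAT1 peaks with 285 and 345 reads (118622 bp) and with 192 and 200 reads (29857 bp), and an ANKRD17 peak with 206 and 181 reads (17120 bp). Among overlaps with at least 50 reads the median ratio was 0.867 near the 3′ end (41 overlaps) and 0.924 elsewhere (143 overlaps), a difference that was not tested.

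**Figure D2:**
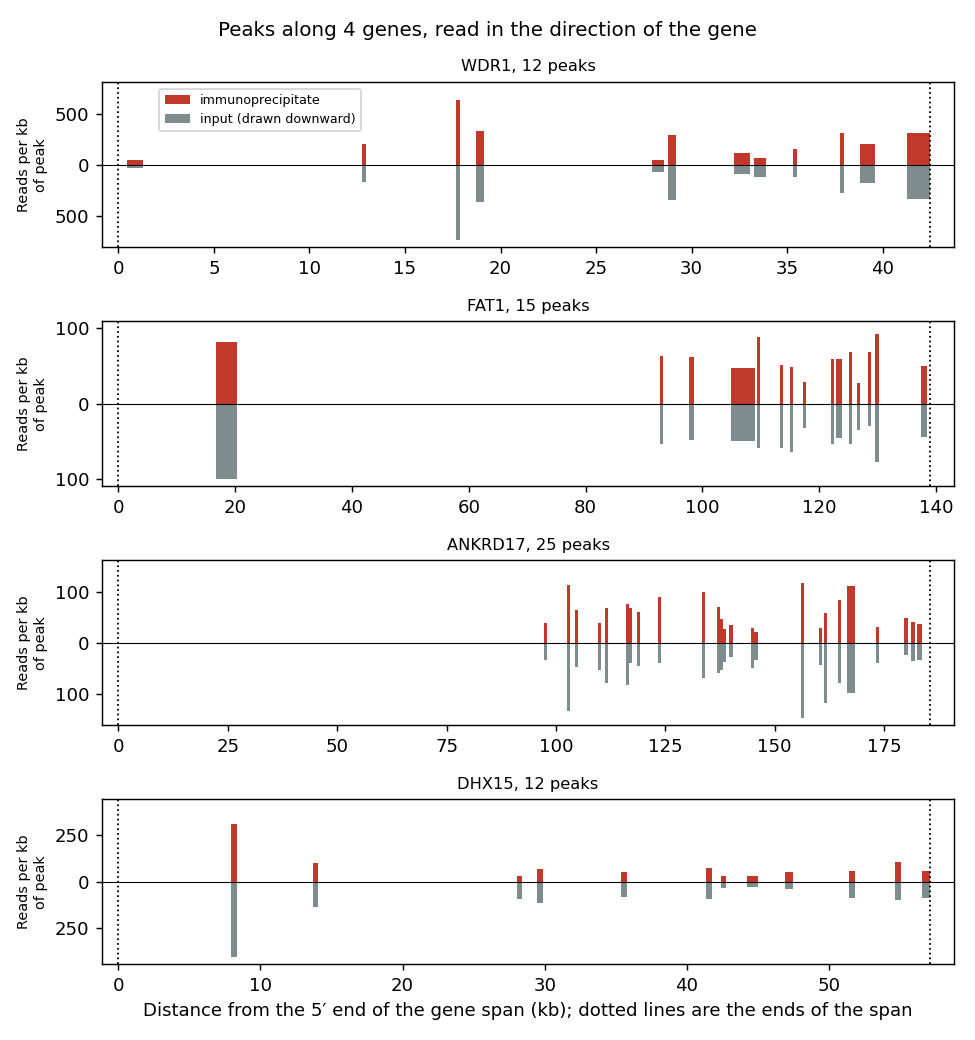
Peaks of WDR1, FAT1, ANKRD17 and DHX15 by distance in kilobases from the 5′ end of the RefSeq span (left) to its 3′ end (right), with immunoprecipitate reads per kilobase of peak drawn upward in red and input reads downward in grey. Bars narrower than 1/250 of the span are widened to be seen. High red bars stand over high grey bars, as in the tallest pair of WDR1, and in DHX15 the grey bar is the longer in 9 of 12 peaks.

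RNA-binding proteins and AKT signalling genes were looked at by the same lists. For comparison, 104 of the 330 minus-strand coding genes of chromosome 4 had a peak, and 20 of the 113 without a listed strand. HNRNPD, which binds AU-rich elements, had 327 and 378 reads (ratio 0.865), HNRNPDL 384 and 388, and G3BP2, a stress granule protein, 317 and 321, so 3 of the 4 genes of that list on the minus strand had peaks and RBM47 had none. Of 15 genes of AKT and growth factor signalling, 9 are not on the plus strand and 2 of these had a peak. EIF4E, the cap-binding translation factor downstream of AKT and mTOR, had 162 and 175 reads over 3 peaks (ratio 0.926). PPP3CA, the catalytic subunit of calcineurin, had 104 and 80 reads (ratio 1.30) and was over 1 in 6 of 6 peaks, on 11 to 28 immunoprecipitate reads each (interval of its share 49.3% to 63.5%). The lower limit of 11 immunoprecipitate reads, which the input does not have, applies to these peaks too. Its part in the 6 of 6 was not tested, and peaks of 1 library are not replicates. The minus-strand genes INPP4B, PPP2R2C, KDR, FBXW7, CAMK2D, MAPK10 and TBCK had no peak.

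In the remaining lists only genes not known to be on the plus strand are counted. Over all of chromosome 4, 104 of 330 minus-strand coding genes and 20 of 113 without a listed strand had a peak. The lists are short and were chosen with earlier results known, so their counts are not read as an excess. In chromatin and centromere genes, 4 of 6 had a peak (median ratio 0.921), with HMGB2, a DNA-bending chromatin protein, at 158 and 144 reads and CENPU, a kinetochore protein, at 70 and 73. In the ubiquitin system 3 of 6 had a peak (median 0.846), among them FBXL5, which senses iron, with 55 and 75 reads, and RCHY1, a ligase, with 18 and 16. In the secretory pathway 3 of 4 had a peak (median 0.963), SEC24D with 16 and 13 reads besides SEC31A and SCARB2. The mitochondrial list had 3 of 6 (median 1.21), with COQ2 at 17 and 14 and ATP5ME at 22 and 16 reads besides LETM1. In the interferon list IRF2, with 13 and 16 reads, joined DDX60 (2 of 5, median 0.926). The zinc finger list of 4p16.3 had 2 of 4, both from the ZNF721 and ABCA11P region already described. The median over all 146 genes with a peak was 0.957, and no median of a list was tested against it.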

How the data were processed

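RIP-seq libraries were made from MDA-MB-231 cells with Flag-AKT1 WT or Flag-AKT1 E17K, 1 anti-Flag immunoprecipitate and 1 input each. The authors deposited 1 peak list per plasmid giving for each peak raw, unnormalized read counts in the immunoprecipitate and in the control. The lists also hold p-values and adjusted p-values that the authors' peak caller gave, of which only the range and an order of the peaks were used. Reads per length, log-odds scores and the caller's empirical false discovery rates were not used. The submitters' processing notes name Bowtie2 2.2.8 and hg18. The peak caller and its filters are not given in the sources used here. Depth is known inside peaks only.

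Peaks of chromosome 4 with the plus label were taken from the WT list. Genes were assigned by an overlap of at least 1 bp with RefSeq spans of GRCh38.p14, with strands from its start windows. Input counts of 3 or fewer were set to 3, and the resulting ratios are lower bounds. Fisher's exact test (scipy 1.17.1) was run on all 808 peaks, adjusted by Benjamini-Hochberg at 0.05, and tried on simulated counts. Around set ratios these had counting error only and no lower limit of reads, unlike the list, so they do not check the calls made here. Python 3.11.15, numpy 2.4.6, pandas 2.3.3 and matplotlib 3.10.9 were used. Named genes are the 12 with the most immunoprecipitate reads, the 8 highest and 8 lowest ratios among genes with at least 50 reads, called peaks, and genes of 10 lists. Others were named after their values were seen. A gene that this rule names is not reported here. Peaks and lists were chosen with earlier results of these data known. Alternatives were other references, thresholds, read minimums, intervals, overlap rules and merging of touching peaks, which changed nothing because no peaks touch.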

Additional observations from a re-analysis of the deposited data

How the results depend on the processing

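Of 32 values under alternatives, 16 moved little and 16 moved by more than 1.5 times (counts) or out of their 95% interval. Calls by Fisher's exact test (2 more, 1 fewer) fell to 0 and 0 against chromosome 4 peaks only, where 21 and 18 peaks had an unadjusted p under 0.05, and to 0 and 0 at an adjusted p of at most 0.001. With at least 30 reads 1 peak with more was left, by construction without SDAD1. Without the peaks of chromosomes 14 and 21, chosen after seeing the data, 1 and 0 were left. The binomial test against the median ratio and merging gave 2 and 1. The median ratio of 1 (interval 0.947 to 1.05) became 0.921 with at least 30 reads, 0.931 in the peaks with the lower authors' adjusted p, and 0.868 with at least 100 reads, chosen after seeing the data. Peaks with an interval above 50% fell from 19 to 11 with at least 30 reads, and against the pooled share, chosen after seeing the data, those above rose from 19 to 26 and those below fell from 34 to 19. Against the same share the genes above rose from 5 to 9 and those below fell from 12 to 6. For these the cause was not tested. The share near the 3′ end was 12.9% within 500 bp and 21.8% within 2000 bp, by construction. The number of genes ran from 116 to 140 under its alternatives, and the share of peaks with an opposite label stayed at 100%. No paired analysis was possible because each group has 1 library.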

Other observations

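Spans of 14 lncRNA genes overlapped these peaks, most of them in the same place as a coding gene. All 5 peaks of CTBP1-AS (236 immunoprecipitate and 233 input reads), all 3 of AFAP1-AS1 (137 and 167) and all 3 of SLC7A11-AS1 (347 and 371) also lay in CTBP1, AFAP1 and SLC7A11, so their reads cannot be told apart by span. NOP14-AS1, which is on the plus strand, shared its 4 peaks with NOP14, with 47 and 50, 28 and 16, 11 and 5, and 18 and 26 reads. THAP9-AS1, which is on the minus strand, shared its 2 peaks with SEC31A, with 69 and 88 and with 33 and 27 reads. LOC124900706 was the only lncRNA with a peak in no other span. HAFML, LOC101927179, LOC124900718, SDAD1-AS1 and WDFY3-AS1 are on the plus strand and each shared every peak with another gene.

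Some peaks belong to genes known for secreted factors of cancer cells. IGFBP7, a secreted binder of insulin-like growth factors, had 94 reads in each library over 4 peaks (ratio 1), of which 1 also lies in POLR2B. PDGFC, a ligand of the platelet-derived growth factor receptors, had 142 immunoprecipitate and 174 input reads over 7 peaks (ratio 0.816, interval of the share 39.5% to 50.4%), 5 of them under 1. These genes were chosen after their values were seen.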
